A study of Mus musculus with 10 samples.

Results

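The IL6 family of cytokines was followed through 8 genes: the ligands Il6, Il11, Lif and Clcf1, the receptor chains Il6st, Lifr and Osmr, and the feedback inhibitor Socs3. They were chosen by symbol, and 10 probes carried these symbols among the 55681 probes that measured genes, so the family makes up 8 of 34734 named genes. All 8 were among the 22596 genes tested. Levels were measured on 10 single-colour arrays, 1 for each culture of mouse mesenchymal stem cells (MSC) of the FVB strain. These stromal cells came either from fat (ASC) or from bone marrow (BM-MSC).

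There were 5 groups of 2 independent cultures, all taken in exponential growth at passages 2 to 5, with no further treatment. Wild-type ASC and wild-type BM-MSC made up the first pair of groups. Null ASC and null BM-MSC carried loxP-flanked alleles of Rb1 and Trp53, the genes of the retinoblastoma protein and p53, and were primed for 10 days in osteogenic medium. An adenovirus with Cre recombinase under the CMV promoter, which is active in many cell types, then removed the flanked DNA. The source labels name Rb-/-p53-/- mice instead. The last group, the tumor line, was grown from a tumor that primed null BM-MSC had formed under the skin of NSG mice, an immunodeficient strain. Part of its labels call it a tumor and part a cell line, and both arrays come from that single derivation. The labels call null BM-MSC and the tumor line tumorigenic and the other 3 groups non-tumorigenic. The study asked whether the stage of differentiation at which MSC lose Rb and p53 shapes the sarcoma that follows.

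Most cytokines of this family signal through a shared receptor chain, gp130, which is the product of Il6st. IL6 and IL11 bring gp130 together through their own binding chains, whereas LIF pairs it with the LIF receptor, and oncostatin M pairs it with the OSM receptor. Janus kinases bound to these chains then activate STAT3, which switches on acute-phase and survival genes and also Socs3, whose protein binds gp130 and shuts the signal down. In bone and marrow, stromal cells are a main source of IL6 and LIF, and the family acts on osteoblasts and osteoclasts.

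Array quality was even. The 75th percentile of the signal lay between 483 and 621, 53.2% to 58.4% of spots were well above background, and no spot was saturated. Across genes, duplicates correlated at r = 0.994 to 0.996 (genes are no replicates of each other). Wild-type and null cultures filled separate rows of the same slide, so gene loss, virus, priming and slide position cannot be told apart. On that slide ASC lay in columns 1 and 2 and BM-MSC in columns 3 and 4, so tissue and column cannot be told apart either. The tumor line lay on another slide, so its differences from the other groups cannot be told apart from slide. On the log2 scale used throughout, Rb1 fell by 1.31 ± 0.05 (SE) in null BM-MSC and by 3.25 ± 0.05 in null ASC, each against wild-type cells of its tissue. Trp53 fell by 1.77 ± 0.20 and by 5.87 ± 0.20, with adjusted p of 0.000715 and 8.70e-06 (limma, Benjamini-Hochberg over all genes). Null BM-MSC thus kept more signal of both targeted genes than null ASC did, well above background on both arrays, and the falls differed between the tissues by 1.93 ± 0.07 for Rb1 (2.92e-05) and 4.10 ± 0.28 for Trp53 (0.000173). The name null is the labels', and where these probes lie relative to the deleted parts was not analysed here. All 10 MSC surface and matrix markers on the list were well above background in every group.

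Il6 encodes the founding cytokine of the family, which carries inflammatory signals from stromal cells. Its probe lies at chr5:30346367-30346426 on the plus strand (mm9), and a level here is the log2 signal minus the array's 75th percentile, so that 0 equals that percentile. In wild-type ASC the levels were 0.87 and 0.89 in the duplicate cultures, and in wild-type BM-MSC they were -0.70 and -1.03. Null ASC gave -0.94 and -1.07, null BM-MSC -2.84 and -3.67, and the tumor line -6.66 and -7.14. The signal was thus highest in wild-type fat cells and was not well above background on either tumor line array. Group means spanned 7.78, the widest span of the 8 genes and well beyond the median span of 1.06 over all genes tested. The low end of that span is dim tumor line signal, so its size is an estimate. As a bound, Il6 was at least 84.9-fold lower in the tumor line than in wild-type ASC. Wild-type BM-MSC and null ASC, neighbours in the order of levels, overlapped and differed by 0.14 ± 0.29 (SE, limma adjusted p = 0.713). The other 3 steps in the order passed the threshold of an adjusted p under 0.05. Of the pairs used only for such orders, the tumor line against null ASC called 66.3% of all genes and against wild-type ASC 70.2%, null BM-MSC against wild-type ASC 57.3%, and wild-type BM-MSC against null ASC 57.1%. Across the 10 arrays the genes most like Il6 were Tspan4 (Pearson r = 0.993) and Eme2 (r = 0.992), of 8254 candidates. Candidates were genes whose group means spanned at least 1, leaving out names that are accessions, clones or gene models. Arrays of a group share their values in such correlations, which are given as descriptions.

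Il6, Osmr and Socs3 were the 3 genes of the family that fell in null cells of both tissues, and the 250 bases upstream of their annotated starts are shown for that reason. Sequences are from RefSeq (GRCm38.p6), 5′ to 3′ along the gene's strand, with motif matches in capitals. The Il6 window is chr5:30012864-30013113 (plus strand), the Osmr window chr15:6874314-6874563 (minus strand) and the Socs3 window chr11:117969367-117969616 (minus strand).
Il6: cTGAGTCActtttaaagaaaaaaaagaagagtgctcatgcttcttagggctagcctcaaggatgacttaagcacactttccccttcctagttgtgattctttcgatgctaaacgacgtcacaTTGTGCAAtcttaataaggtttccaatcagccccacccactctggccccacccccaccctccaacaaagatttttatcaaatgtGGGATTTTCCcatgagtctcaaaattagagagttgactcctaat
Osmr: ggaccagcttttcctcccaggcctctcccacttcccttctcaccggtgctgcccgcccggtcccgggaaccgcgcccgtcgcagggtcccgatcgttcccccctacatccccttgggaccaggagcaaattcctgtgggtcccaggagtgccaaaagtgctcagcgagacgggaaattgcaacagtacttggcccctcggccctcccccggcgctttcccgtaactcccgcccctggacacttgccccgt
Socs3: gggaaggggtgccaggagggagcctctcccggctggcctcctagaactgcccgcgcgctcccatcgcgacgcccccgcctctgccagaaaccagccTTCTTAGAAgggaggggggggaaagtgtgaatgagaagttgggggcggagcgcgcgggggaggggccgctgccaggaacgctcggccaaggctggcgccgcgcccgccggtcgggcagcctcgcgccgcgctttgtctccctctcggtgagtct
Both strands were searched for the STAT motif TTCNNNGAA, the C/EBP motif TTGCNNAA, the AP-1 motif TGANTCA and the NF-κB motif. The Il6 window held an NF-κB match (GGGATTTTCC) whose first base is 44 bases before the start, a C/EBP match (TTGTGCAA) at 128 and an AP-1 match (TGAGTCA) at 249. The Socs3 window held a STAT match (TTCTTAGAA) at 154 bases, and the Osmr window held none of the 4 motifs. Of 32851 promoter windows of the same length, 7.02% held the STAT motif, 7.25% the NF-κB motif, 9.56% the C/EBP motif and 6.75% the AP-1 motif. RefSeq windows were found for 7 of the 8 genes, with Clcf1 the remaining one. In the others, the Lif window held an NF-κB match at 178 and an AP-1 match at 228, and the second of 2 Il11 windows held an AP-1 match at 98. The windows of Il6st and Lifr held none of the 4. A match describes these letters only and shows neither binding nor a cause.

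Il11 encodes interleukin 11, which acts on bone-forming and stromal cells through its own binding chain and gp130. Its probe lies at chr7:4724847-4724906 on the minus strand (mm9). Levels were -2.82 and -2.99 in wild-type ASC, -2.94 and -2.74 in null ASC, -1.53 and -1.45 in wild-type BM-MSC, -1.68 and -1.74 in null BM-MSC, and -0.58 and -0.45 in the tumor line. The order followed tissue rather than genotype, with fat cells lowest and the tumor line highest. Neither null against wild-type ASC (adjusted p = 0.593 in limma) nor null against wild-type BM-MSC (0.130) passed the threshold. The genes most like it were B3galnt1 and Gngt2, each at r = 0.995.

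Clcf1 encodes cardiotrophin-like cytokine factor, a ligand that signals through gp130 and the LIF receptor. Its probe lies at chr19:4222480-4222539 on the plus strand (mm9). The level was -1.0 in both wild-type ASC cultures, -0.91 and -0.90 in null ASC, 0.09 and 0.20 in wild-type BM-MSC, -0.24 and -0.15 in null BM-MSC, and 0.60 and 0.51 in the tumor line. As with Il11, fat cells were lowest and the tumor line highest, and here the marrow groups were also apart from each other. Null and wild-type ASC, the lowest neighbours, did not pass the threshold (adjusted p = 0.253 in limma). Spata7 (r = 0.997) and Fam193b (r = 0.993) were most like it, and Clcf1 itself correlated with Il11 at r = 0.984 over the 10 arrays.

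Lif encodes leukemia inhibitory factor, and its probe lies at chr11:4172032-4172091 on the plus strand (mm9). Levels were -2.48 and -2.69 in wild-type ASC, -3.21 and -3.26 in null ASC, -4.61 and -4.56 in null BM-MSC, -5.00 and -5.46 in wild-type BM-MSC, and -6.70 and -5.91 in the tumor line. Lif was a dim gene that ran opposite to Il11 and Clcf1, with fat cells highest and the tumor line lowest. It was not well above background on any array of wild-type BM-MSC or of the tumor line. Its correlation over the arrays was -0.968 with Il11 and -0.987 with Clcf1, and the tumor line and tissue differences are part of all 3 patterns. Wild-type and null ASC did not differ past the threshold (adjusted p = 0.0989 in limma), nor did null and wild-type BM-MSC (0.106). Fam118b (r = 0.988) and Phf20l1 (r = 0.986) were the genes most like it.

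**Figure D1:**
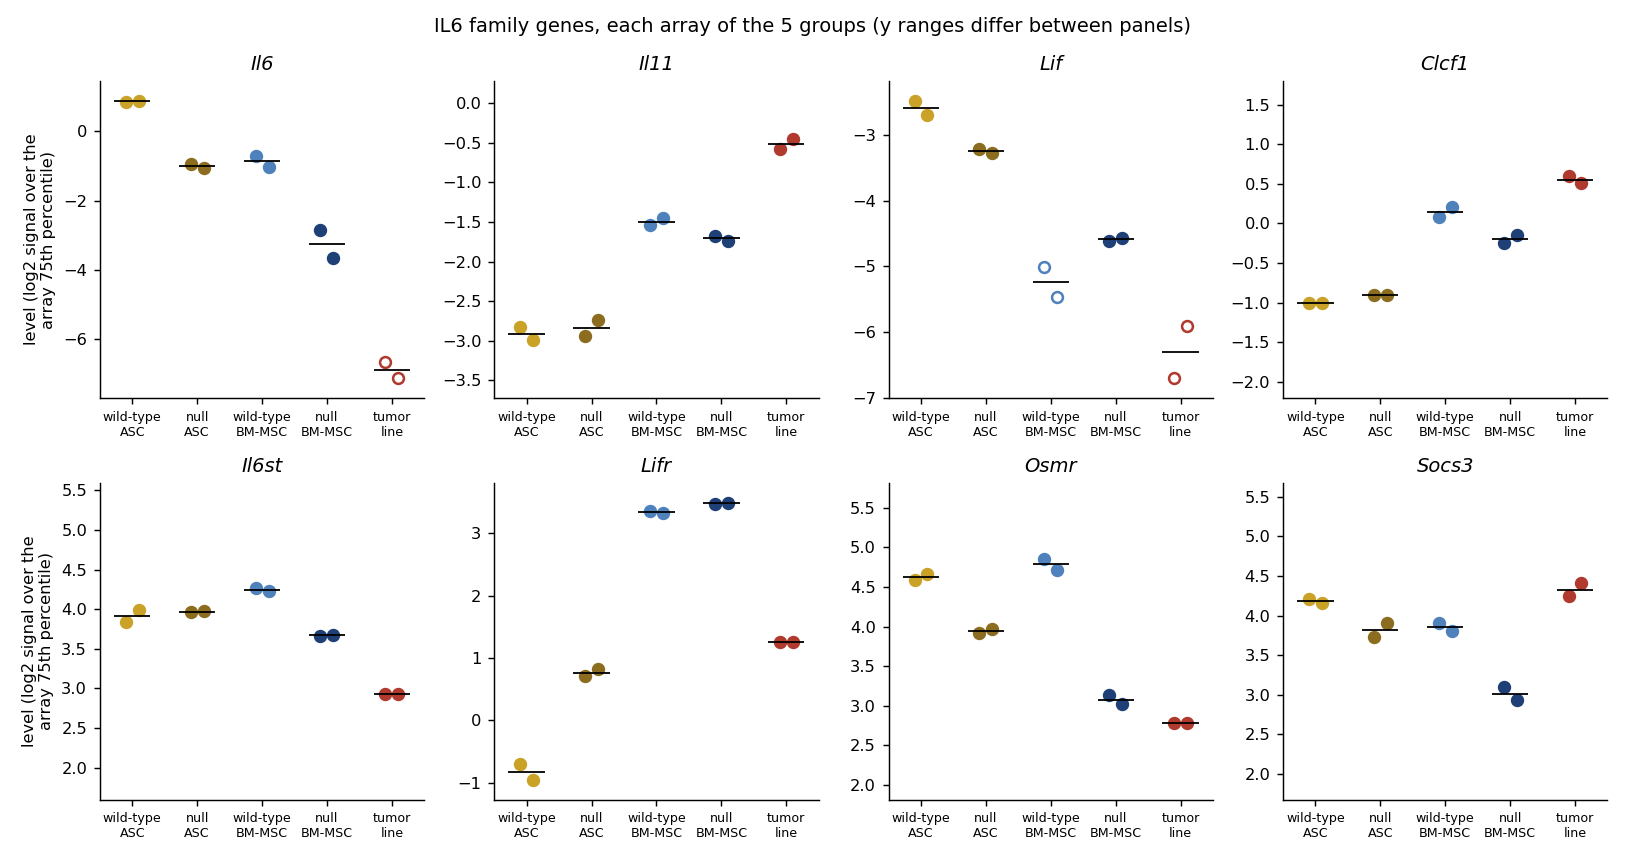
Level of each of the 8 genes on each array (y axis, log2 signal minus the array's 75th percentile, with ranges that differ between panels) in the 5 groups (x axis). Each point is 1 culture, lines are group means, and open points mark groups in which no array was well above background. Il6 runs from 0.88 in wild-type ASC down to -6.90 in the tumor line, while Il11 and Clcf1 are highest in the tumor line.

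Il6st encodes gp130, the chain shared by the ligands Il6, Il11, Lif and Clcf1. Its probe lies at chr13:113296586-113296645 on the plus strand (mm9). Levels were 4.27 and 4.23 in wild-type BM-MSC, 3.97 in both null ASC cultures, 3.84 and 3.99 in wild-type ASC, 3.66 and 3.68 in null BM-MSC, and 2.93 in both tumor line cultures. Il6st was highest in wild-type marrow cells and lowest in the tumor line, and group means spanned 1.32. Null and wild-type ASC overlapped (difference 0.05 ± 0.06 SE, adjusted p = 0.483 in limma), and every other step between neighbours passed the threshold. Cap2 (r = 0.986) and Pcx (r = 0.983) were most like it.

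Lifr encodes the LIF receptor, the partner of gp130 for LIF and for Clcf1. It has 3 probes, and the brightest of them, in the downstream part of transcript variant 1 (chr15:7147319-7147378, plus strand, mm9), stands for the gene. Levels were -0.70 and -0.95 in wild-type ASC, 0.70 and 0.82 in null ASC, 1.26 and 1.25 in the tumor line, 3.35 and 3.32 in wild-type BM-MSC, and 3.46 and 3.49 in null BM-MSC. Marrow cultures were far above fat cultures, and the tumor line lay between them although it came from marrow cells. Only the step between null and wild-type BM-MSC did not pass the threshold (adjusted p = 0.257 in limma). Prrx2 and Unc5c, both at r = 0.996, were the genes most like Lifr.

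The upstream variant 1 probe (chr15:7141150-7141209) had group means of -4.03 ± 0.29 (SD, n = 2) in wild-type ASC, -2.75 ± 0.15 in null ASC, -2.70 ± 0.25 in the tumor line, -0.59 ± 0.07 in wild-type BM-MSC and -0.30 ± 0.05 in null BM-MSC. The variant 2 probe (chr15:7135072-7135131) had -4.42 ± 0.13, -2.09 ± 0.01, -0.32 ± 0.10, 0.75 ± 0.03 and 1.67 in the same order, the last with an SD of 0.001. All 3 probes thus gave the same order of groups. They were not alike in size. In null against wild-type BM-MSC the changes were 0.14 ± 0.09 (SE) on the probe used, 0.29 ± 0.17 on the upstream probe and 0.92 ± 0.08 on the variant 2 probe. Of these, the variant 2 change passed the threshold (adjusted p = 0.000322 in a limma fit of all probes, added after the probes were seen), and the upstream change did not (0.257). For the tumor line against null ASC, the variant 2 probe differed by 1.77 ± 0.08 and the upstream probe by 0.05 ± 0.17.

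**Figure D2:**
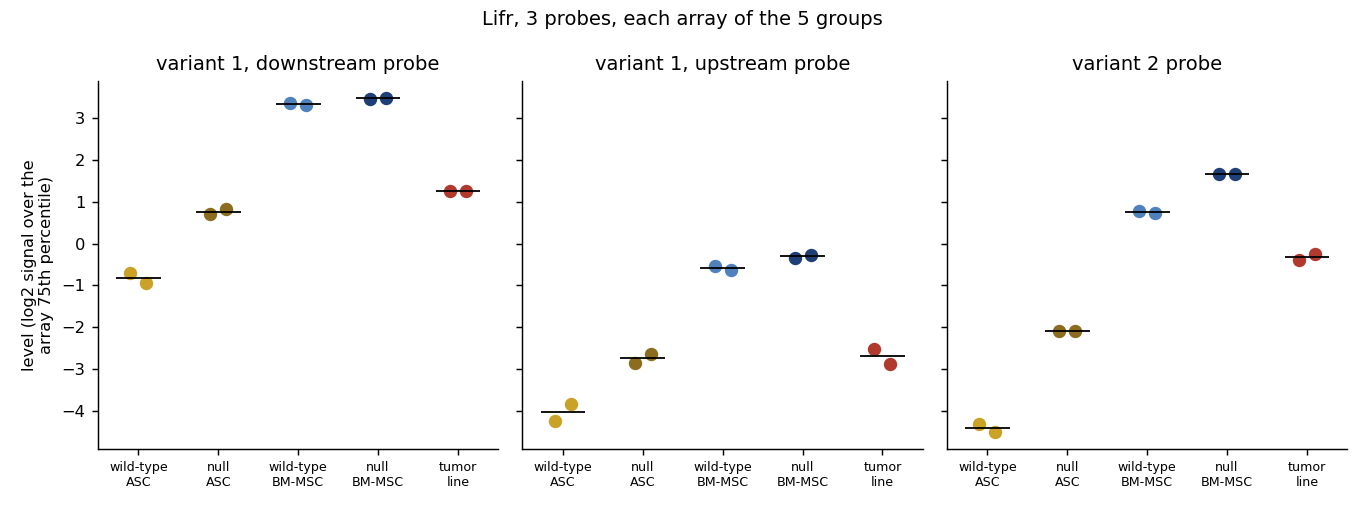
Level of each of the 3 Lifr probes (y axis, log2 signal minus the array's 75th percentile) on each array of the 5 groups (x axis), with points for cultures and lines for group means. Levels of different probes are not comparable with each other. Every panel has wild-type ASC lowest and null BM-MSC highest, and null BM-MSC lies clearly above wild-type BM-MSC on the variant 2 probe.

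Osmr encodes the receptor chain that pairs with gp130 for oncostatin M, and its probe lies at chr15:6763686-6763745 on the minus strand (mm9). Levels were 4.85 and 4.72 in wild-type BM-MSC, 4.59 and 4.67 in wild-type ASC, 3.92 and 3.97 in null ASC, 3.13 and 3.03 in null BM-MSC, and 2.78 in both tumor line cultures. Both wild-type groups were above both null groups, and the tumor line was lowest. Wild-type BM-MSC and ASC did not differ past the threshold (0.16 ± 0.07 SE, adjusted p = 0.0865 in limma). That step passed it when wild-type BM-MSC replicate 2 was left out (0.22, adjusted p = 0.0496). Adra1d (r = 0.991) and Acy3 (r = 0.980) were most like Osmr. Oncostatin M itself, Osm, was well above background on at most 1 array of any group and was not tested.

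Socs3 encodes the inhibitor that STAT3 induces and that closes the loop at gp130. Its probe lies at chr11:117827480-117827539 on the minus strand (mm9). Levels were 4.24 and 4.41 in the tumor line, 4.21 and 4.15 in wild-type ASC, 3.91 and 3.81 in wild-type BM-MSC, 3.73 and 3.91 in null ASC, and 3.1 and 2.94 in null BM-MSC. Null BM-MSC stood below all other groups, and the tumor line, derived from such cells, was at the level of wild-type ASC. That top step (0.15 ± 0.09 SE, adjusted p = 0.203 in limma) and the step between wild-type BM-MSC and null ASC (0.04 ± 0.09, 0.757) did not pass the threshold. Ypel3 (r = 0.991) and Atp13a2 (r = 0.982) were most like it.

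In bone marrow cells labelled null for Rb and p53, in which Rb1 signal was 2.49-fold and Trp53 signal 3.41-fold lower, the family was lower than in wild-type cells for the cytokine Il6, for the receptor chains Il6st and Osmr, and for the inhibitor Socs3. Il6 was 5.25-fold lower, Osmr 3.26-fold lower, Socs3 1.79-fold lower and Il6st 1.49-fold lower. Of the 8 genes, 5 fell and none rose, where 20.2% of all genes fell, 19.3% rose and 39.5% changed in either direction. Lifr was counted on its brightest probe, while its variant 2 probe rose. The median change of the 8 was -0.46, against 0.01 over all genes tested. For all 8 genes both null cultures lay on the same side of both wild-type cultures, which was also so for 71.2% of all genes.

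The changes in null BM-MSC were -2.39 ± 0.29 (SE) for Il6 (adjusted p = 0.00102 in limma), -1.71 ± 0.07 for Osmr (1.31e-05), -0.84 ± 0.09 for Socs3 (0.000769), -0.58 ± 0.06 for Il6st (0.000412) and -0.34 ± 0.06 for Clcf1 (0.00543). Il11 (-0.21 ± 0.09), Lif (0.64 ± 0.27) and Lifr (0.14 ± 0.09) did not pass the threshold. The other Lifr probes gave 0.29 ± 0.17, not past the threshold, and 0.92 ± 0.08 on the variant 2 probe, which passed it. Lif was not well above background in wild-type BM-MSC, so its 1.56-fold higher level in null BM-MSC is an estimate from dim signal. Its call appeared when the tumor line was left out of the fit (adjusted p = 0.0287 in limma). With normexp background correction, which adds an offset to every signal, the Il6 change was -1.45 and the Lif change 0.22. The summed signal of 12 myeloid markers also differed, and its part in these changes was not tested. It was 15068 and 17112 in the wild-type BM-MSC arrays and 10936 and 12191 in the null BM-MSC arrays. Most of it came from Itgam alone, with 12033 and 13756 in the wild-type arrays and 8844 and 10049 in the null arrays. In each of these groups 7 of the 12 were well above background on both arrays. Ptprc lay between -5.06 and -5.59 as a mean in all groups, and Cd52, Fcgr1, Tyrobp and Laptm5 were well above background on no array of either group. Osteoblast markers were higher in null than in wild-type BM-MSC for Ibsp (5.69 against 2.37), Bglap (3.43 against -0.18), Alpl (2.23 against 0.12), Sp7 (1.39 against -0.24) and Runx2 (-0.40 against -1.14), close for Col1a1 (7.30 and 7.23) and lower for Spp1 (3.66 against 4.21), and their part was not tested either. In bulk cultures fewer cells of a type and less RNA per cell cannot be told apart.

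In fat cells labelled null, Il6, Osmr and Socs3 were lower and Lifr was higher than in wild-type cells, with Rb1 signal 9.49-fold and Trp53 signal 58.5-fold lower (Trp53 on 1 of 2 null ASC arrays well above background). Il6 was 3.68-fold lower, Osmr 1.61-fold lower and Socs3 1.28-fold lower, while Lifr was 3.01-fold higher. Thus 3 of the 8 genes fell and 1 rose, where 21.2% of all genes fell, 20.3% rose and 41.5% changed in either direction. The median change was -0.15, against -0.03 over all genes. Cultures of the null and wild-type groups did not overlap for 6 of the 8 genes, as for 70% of all genes, with Il11 and Il6st the overlapping pair.

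The changes in null ASC were -1.88 ± 0.29 (SE) for Il6 (adjusted p = 0.00247 in limma), 1.59 ± 0.09 for Lifr (3.47e-05), -0.68 ± 0.07 for Osmr (0.000321) and -0.36 ± 0.09 for Socs3 (0.0231). Il11 (0.07 ± 0.09), Lif (-0.65 ± 0.27), Clcf1 (0.10 ± 0.06) and Il6st (0.05 ± 0.06) did not pass the threshold. The other Lifr probes gave 1.29 ± 0.17 and 2.32 ± 0.08. The Socs3 call rests on few arrays: its adjusted p was 0.0924 without wild-type ASC replicate 1, 0.0641 without replicate 2 and 0.117 without null ASC replicate 1. The Lif change was called without either tumor line array (adjusted p = 0.0260). Myeloid marker signal summed to 14212 and 18377 in wild-type ASC and to 9438 and 10417 in null ASC. Itgam alone supplied 9937 and 13482 of it in wild-type ASC and 5993 and 6868 in null ASC. In these groups 8 and 6 of the 12 markers were well above background on both arrays. The part of this signal was not tested.

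**Figure D3:**
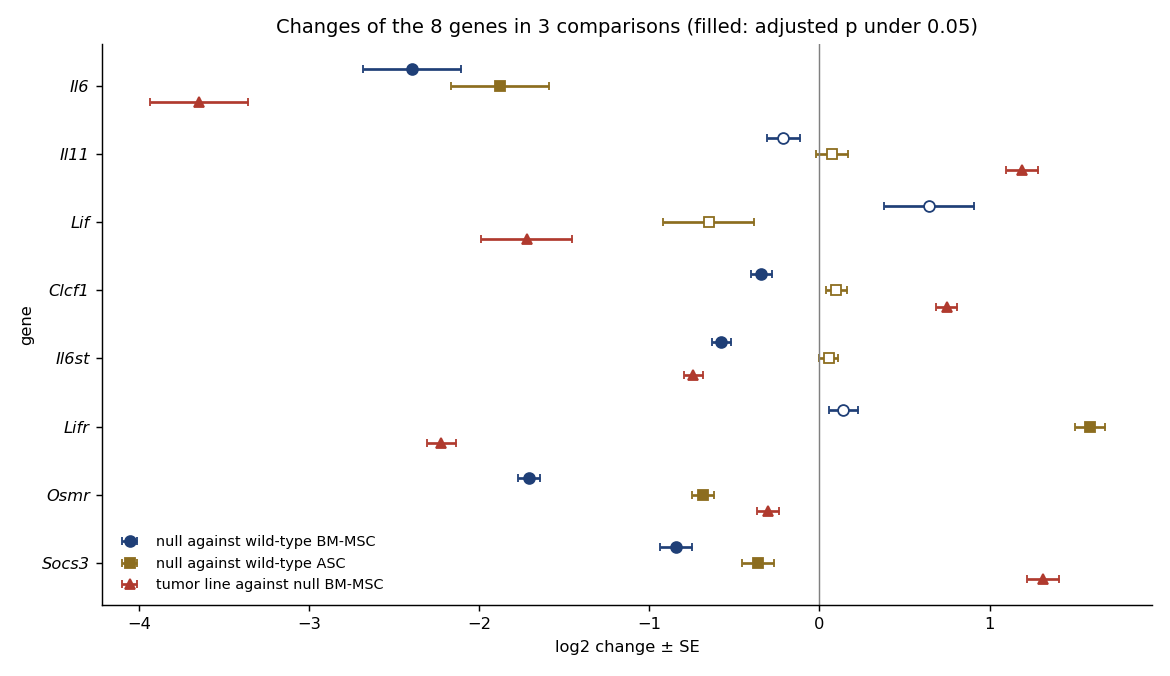
Change of each of the 8 genes (x axis, log2, with bars of ± 1 SE) in null against wild-type BM-MSC, null against wild-type ASC, and the tumor line against null BM-MSC. Filled symbols passed an adjusted p of 0.05 in limma, and the last comparison shares its null BM-MSC arrays with the first. Osmr and Il6 lie left of 0 in all 3, whereas Socs3 lies left in both null comparisons and right in the tumor line.

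The change from wild-type to null in BM-MSC minus that in ASC was tested directly, and it differed for 6 of the 8 genes, where 31.8% of all genes did. The loss of Rb1 and Trp53 signal was itself unequal, smaller in BM-MSC by 1.93 and 4.10, and its part in these differences was not tested. It was negative for 5 of the 8, against 16.6% of all genes, and positive for 1, against 15.3%. Osmr fell further in marrow cells, by 1.02 ± 0.09 (SE) on the log2 scale (adjusted p = 0.000488 in limma). Il6st, which fell in marrow cells and was within the spread in fat cells, differed by -0.63 ± 0.08 (0.00169). Lifr, which rose in fat cells, differed by -1.45 ± 0.12 (0.000386), and Clcf1 by -0.44 ± 0.09 (0.0104). For Il6, whose fall was large in both tissues, the difference of -0.51 ± 0.41 did not pass the threshold (0.399), nor did that of Il11 (-0.28 ± 0.13, 0.165).

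The differences of Lif (1.30 ± 0.38 SE, adjusted p = 0.0424 in limma) and Socs3 (-0.48 ± 0.13, 0.0358) lie near the threshold. Leaving out any of the 8 arrays of wild-type and null cells other than wild-type BM-MSC replicate 1 ended the Lif call, with adjusted p of 0.0748 to 0.119. The Socs3 call ended without either wild-type ASC array (0.0689 and 0.0951), either wild-type BM-MSC array (0.107 and 0.0620), null ASC replicate 2 (0.0975) or null BM-MSC replicate 2 (0.106). Under normexp correction the Lif difference was 0.58. With the array median subtracted in place of the 75th percentile, the differences of Lif, Clcf1 and Socs3 were not called, with adjusted p of 0.0658, 0.0801 and 0.181.

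Wild-type marrow and fat cells differed most in Lifr, which was 17.9-fold higher in BM-MSC, and in Lif, which was 6.27-fold lower there. Lif was not well above background in wild-type BM-MSC, so this fold is an estimate from dim signal. Under normexp correction the Lif difference was -0.93 on the log2 scale, and -1.89 in the deposited series matrix, against -2.65 otherwise. Lifr and Lif thus ran in opposite directions between the tissues. Clcf1, which also signals through the LIF receptor, ran in the same direction as Lifr. Il11 (2.67-fold) and Clcf1 (2.22-fold) were also higher in marrow cells, and Il6 was 3.34-fold lower. Of the 8 genes, 4 were higher and 3 lower in wild-type BM-MSC, where 25.7% of all genes were higher, 28.3% lower and 54.0% either. All 8 genes had groups that did not overlap, as had 75.2% of all genes. The log2 differences were 4.16 ± 0.09 (SE) for Lifr (adjusted p = 2.46e-07 in limma), -2.65 ± 0.27 for Lif (0.000226), -1.74 ± 0.29 for Il6 (0.00237), 1.41 ± 0.09 for Il11 (3.19e-05), 1.15 ± 0.06 for Clcf1 (1.13e-05), 0.33 ± 0.06 for Il6st (0.00255) and -0.32 ± 0.09 for Socs3 (0.0272). The other Lifr probes gave 3.44 ± 0.17 and 5.17 ± 0.08. The Socs3 call ended without wild-type ASC replicate 1 (adjusted p = 0.105) or 2 (0.0682) and without wild-type BM-MSC replicate 1 (0.0550) or 2 (0.126).

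The same tissue contrast among null cells called all 8 genes, where 55.4% of all genes were called. Lifr (6.56-fold), Il11 (2.19-fold) and Clcf1 (1.64-fold) were higher in null BM-MSC than in null ASC, where 26.0% of all genes were higher. Il6 (4.77-fold), Lif (2.55-fold), Osmr (1.82-fold), Socs3 (1.75-fold) and Il6st (1.23-fold) were lower, where 29.4% of all genes were. Null BM-MSC thus had less Il6 signal and less of the chains Il6st and Osmr than null ASC. The labels call null BM-MSC tumorigenic and null ASC non-tumorigenic, but these groups also differ in tissue. Among wild-type cells, labelled non-tumorigenic in both tissues, Il6 was also 3.34-fold lower in BM-MSC, Il6st was 1.26-fold higher and Osmr was not called. Rb1 signal was 5.80-fold and Trp53 signal 14.0-fold higher in null BM-MSC than in null ASC. The part of this was not tested. Between the null groups the log2 differences were -2.26 ± 0.29 (SE) for Il6 (adjusted p = 0.000650 in limma), -0.86 ± 0.07 for Osmr (5.36e-05), -0.80 ± 0.09 for Socs3 (0.000437) and -0.30 ± 0.06 for Il6st (0.00380). The Il6st call ended with the array median subtracted (adjusted p = 0.171). Normexp correction gave -1.36 for Il6 and -0.35 for Lif, which was otherwise at -1.35. Of 6 adipocyte markers, Lpl was higher in ASC (8.05 and 7.91 in wild-type and null cells against 2.76 and 3.16 in BM-MSC) and supplied nearly all of their summed signal of 132279 to 142664 in ASC, against 7923 to 11861 in BM-MSC. Pparg ran the other way (-1.55 and -1.30 in ASC, 2.77 and 2.48 in BM-MSC), as did Cebpa (-5.68 and -2.92 against 1.57 and 0.51). Fabp4 was lower in ASC among wild-type cells (-0.17 against 1.96) and higher among null cells (0.50 against -2.17). Adipoq was well above background on no ASC array, and the part of these markers in the differences was not tested.

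In the tumor line, compared with the null BM-MSC it came from, the receptor chains Lifr, Il6st and Osmr and the ligands Il6 and Lif were lower, and Il11, Clcf1 and Socs3 were higher. All 8 genes were called, 3 higher and 5 lower, where 34.6% of all genes were higher, 35.0% lower and 69.5% either. Il6 was at least 4.83-fold lower and Lif at least 1.92-fold lower, since neither was well above background in the tumor line. Lifr was 4.67-fold lower, Il6st 1.67-fold lower and Osmr 1.23-fold lower. Socs3 was 2.48-fold higher, Il11 2.28-fold and Clcf1 1.68-fold. Groups of all 8 genes did not overlap, which held for 86% of all genes. Rb1 was also 5.94-fold lower and Trp53 at least 23.1-fold lower in the tumor line than in null BM-MSC, and the part of this in the changes was not tested.

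The log2 changes were -3.65 ± 0.29 (SE) for Il6 (adjusted p = 4.24e-05 in limma), -2.22 ± 0.09 for Lifr (1.74e-06), -1.72 ± 0.27 for Lif (0.00120), 1.31 ± 0.09 for Socs3 (2.73e-05), 1.19 ± 0.09 for Il11 (4.37e-05), 0.75 ± 0.06 for Clcf1 (4.94e-05), -0.74 ± 0.06 for Il6st (3.32e-05) and -0.30 ± 0.07 for Osmr (0.00573). The other Lifr probes gave -2.39 ± 0.17 and -1.99 ± 0.08. The sizes for Il6 and Lif depend on how dim signals are read: normexp correction gave -0.99 and -0.41, and the deposited series matrix -2.21 and -0.79. Subtracting the array median, which shifted the median of all genes by 0.11 here, left Osmr at -0.19 and no longer called (adjusted p = 0.177). The myeloid markers Tyrobp, Cd52 and Laptm5 were well above background in the tumor line and on no array of the other groups, with Tyrobp at -1.92 and -1.95 against -6.33 and -7.09 in null BM-MSC. Of the other myeloid markers, Itgam (2.80 against 4.23), Csf1r (0.19 against 0.96), Adgre1 and Ptprc were lower in the tumor line. Lyz2 (-1.73 against -5.72), Cd14 (1.93 against 0.48), Cd68 (0.60 against -0.87) and Aif1 (-2.09 against -2.36) were higher. The summed signal of the 12 was 7830 and 8673 against 10936 and 12191, with 10 well above background on both tumor line arrays. Itgam alone supplied 4014 and 3953 of it, against 8844 and 10049 in null BM-MSC. Eng, on the endothelial and MSC lists, was at -2.12 against 3.13, while the endothelial markers Kdr (1.56 against 1.80) and Pecam1 (-3.54 against -3.55) differed little. The osteoblast markers Sp7, Alpl and Bglap were well above background in null BM-MSC and on no tumor line array, Ibsp was at -4.41 against 5.69, and Spp1 at 7.03 against 3.66. The part of these markers in the changes was not tested.

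Against wild-type BM-MSC, Il6, Lifr, Osmr and Il6st were lower in the tumor line, and Il11, Socs3 and Clcf1 were higher. In that comparison 34.8% of all genes were lower, 33.0% higher and 67.8% either. Il6 was at least 25.4-fold lower (-6.04 ± 0.29 SE, adjusted p = 4.11e-06 in limma; -2.44 under normexp correction and -4.32 in the series matrix), Lifr 4.23-fold lower, Osmr 4.02-fold lower and Il6st 2.49-fold lower. Il11 was 1.97-fold higher, Socs3 1.38-fold and Clcf1 1.33-fold. Lif was not well above background in either group and has no fold. Its fitted change was -1.08 ± 0.27 (adjusted p = 0.0107 in limma). The change was -0.68 without tumor line replicate 1 and -0.85 without wild-type BM-MSC replicate 1. In a fit of only these groups it was not called (adjusted p = 0.0694 in limma). Normexp correction gave -0.18 for Lif and the series matrix -0.45. This comparison shares arrays with the previous one, and median centring shifted the median of all genes by 0.13 in it.

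The remaining genes of the pathway were taken as 6 lists. Genes that STAT3 is known to induce were mostly lower in null than in wild-type cells. Of 25 such genes, 17 fell and 2 rose in null BM-MSC, where 20.2% of all genes fell, and 14 fell and 1 rose in null ASC, where 21.2% did. Their median change was -0.77 in BM-MSC and -0.51 in ASC. The acute-phase gene Saa3 had levels of 6.10 and 5.89 in wild-type ASC, 2.45 and 2.76 in null ASC, and -0.50 and -0.67 in wild-type BM-MSC. It was not well above background in null BM-MSC, at -6.91 and -7.24, nor in the tumor line. Saa3 was thus at least 25.6-fold lower in null than in wild-type BM-MSC and fell by 3.39 ± 0.16 (SE, log2) in null ASC (adjusted p = 2.32e-05 in limma). The fitted Saa3 change in BM-MSC was -6.49, but -2.48 under normexp correction. Serpina3n, another acute-phase gene, fell by 2.62 ± 0.07 in BM-MSC and by 2.37 ± 0.07 in ASC. Hp, which encodes haptoglobin, fell by 3.22 ± 0.15 in BM-MSC, and Ccnd1, which encodes cyclin D1, fell by 2.21 ± 0.07 in ASC.

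In the tumor line against null BM-MSC, 13 of these 25 genes rose and 6 fell, with a median of 0.49, where 34.6% of all genes rose. Vegfa, an angiogenic growth factor, rose by 2.05 ± 0.06 (SE, log2; adjusted p = 4.28e-07 in limma), and Myc, a growth-promoting transcription factor, by 2.05 ± 0.09 (2.32e-06). Hp fell by 6.63 ± 0.15 (2.35e-07), with 1 of 2 tumor line arrays well above background, and by 4.33 under normexp correction. Against wild-type BM-MSC the tumor line had 10 of the 25 higher and 12 lower, where 33.0% and 34.8% of all genes were. Socs3, itself a STAT3 target, is not on this list.

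**Figure D4:**
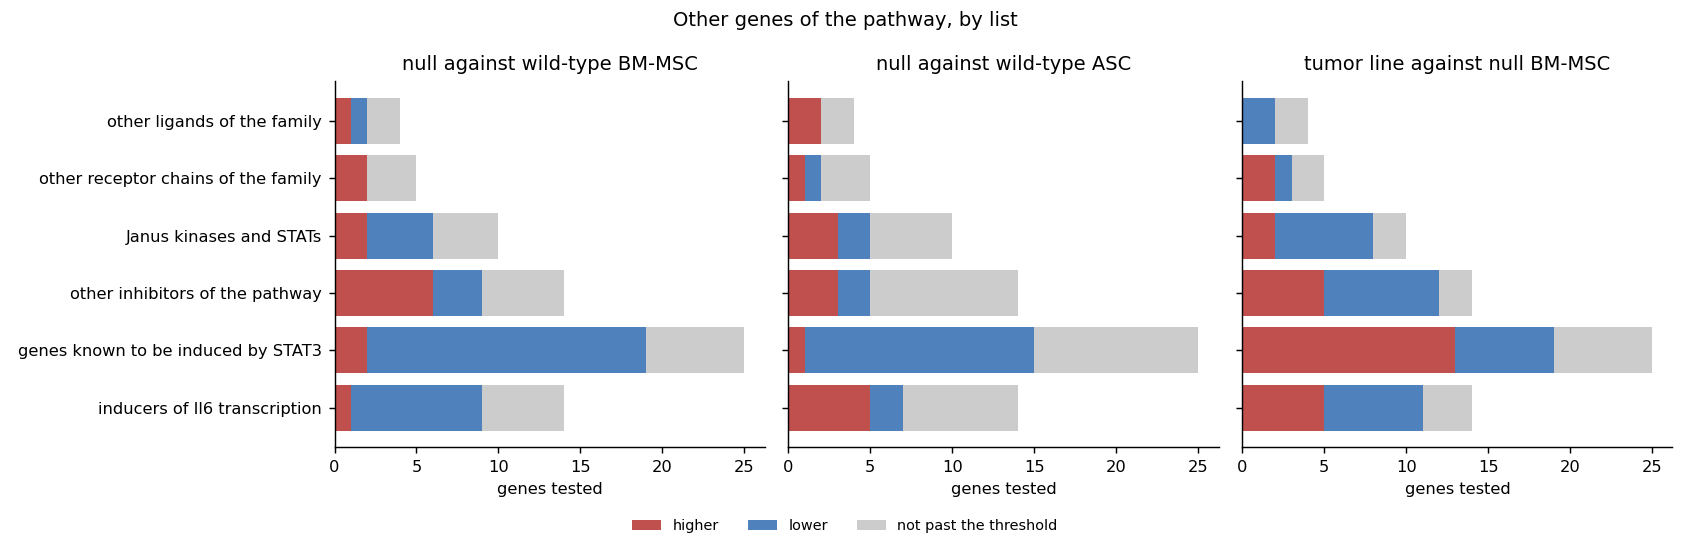
Number of tested genes of each pathway list (x axis) that were higher, lower or not past an adjusted p of 0.05 in limma, in 3 comparisons. Of the 25 genes that STAT3 is known to induce, 17 were lower in null BM-MSC and 14 in null ASC, and 13 were higher in the tumor line than in null BM-MSC.

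Among other ligands, 4 of 8 could be tested: 1 rose and 1 fell in null BM-MSC, 2 rose in null ASC, and 2 fell in the tumor line against null BM-MSC. Rises and falls made up 19.3% and 20.2% of all genes in null BM-MSC, 20.3% and 21.2% in null ASC, and 34.6% and 35.0% in the tumor line, and counts from so short a list are not read against them. Cntf, which encodes ciliary neurotrophic factor, rose in null cells by 0.56 ± 0.05 (SE, log2) in BM-MSC and by 0.51 ± 0.05 in ASC.

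Of 5 tested chains among the other receptors, 2 rose in null BM-MSC and none fell, and 1 rose and 1 fell in null ASC. The tumor line had 2 higher and 1 lower than null BM-MSC. With 5 genes these counts are near the shares of all genes (19.3% up and 20.2% down in null BM-MSC, 20.3% and 21.2% in null ASC, 34.6% and 35.0% in the tumor line). Il6ra, the chain that binds IL6 itself, had levels of 3.42 and 3.26 in wild-type ASC, 3.31 and 3.38 in null ASC, 1.81 and 1.71 in wild-type BM-MSC, 2.10 and 2.08 in null BM-MSC, and 3.16 and 3.13 in the tumor line. It rose by 0.33 ± 0.07 (SE, log2) in null BM-MSC (adjusted p = 0.0103 in limma) while Il6 fell, and it was 0.01 ± 0.07 apart in ASC (0.948). That call ended without wild-type BM-MSC replicate 2 (adjusted p = 0.0592) and without null BM-MSC replicate 1 (0.0565). In the tumor line Il6ra rose by 1.05 ± 0.07 against null BM-MSC (1.74e-05). Il11ra1, the binding chain for IL11, rose by 0.41 ± 0.05 in null BM-MSC (0.000814) and fell by 0.31 ± 0.05 in null ASC (0.00227), a difference of 0.72 ± 0.07 between the effects (0.000514). It fell by 1.17 ± 0.05 in the tumor line (1.92e-06), where its ligand Il11 was higher. Il27ra, a receptor chain for IL27, rose by 2.05 ± 0.21 there (0.000144), and by 0.99 under normexp correction. Il31ra, a chain that pairs with the OSM receptor for IL31, rose by 2.19 ± 0.68 in null ASC (0.0419). That call ended without any 1 of the 4 ASC arrays, the 2 null BM-MSC arrays or the 2 tumor line arrays, and with no filter on dim probes (adjusted p = 0.0533 to 0.138), and normexp correction gave 0.90.

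Of 10 Janus kinases and STATs tested, 2 rose and 4 fell in null BM-MSC, 3 rose and 2 fell in null ASC, and 2 rose and 6 fell in the tumor line against null BM-MSC. All genes tested had 19.3% higher and 20.2% lower, 20.3% and 21.2%, and 34.6% and 35.0% in these comparisons, so several of the counts are near the background. Stat3 had levels of 5.36 in both wild-type ASC cultures, 5.22 and 5.26 in null ASC, 5.10 and 5.06 in wild-type BM-MSC, 4.88 and 4.81 in null BM-MSC, and 4.54 and 4.53 in the tumor line. Its changes were small next to those of Il6 and Osmr: it fell by 0.24 ± 0.05 (SE, log2) in null BM-MSC (adjusted p = 0.00708 in limma) and by 0.31 ± 0.05 in the tumor line (0.000946), and its value in null ASC was -0.12 ± 0.05 (0.0822). Neither fall was called with the array median subtracted (adjusted p = 0.129 and 0.108), and the first was not in a fit of the 4 BM-MSC arrays alone (0.0532). Jak1, the main kinase on gp130, rose by 0.40 ± 0.06 in null ASC (0.00213) and by 0.42 ± 0.06 in the tumor line (0.000730), and its value in null BM-MSC was -0.07 ± 0.06 (0.401). Jak3 fell by 0.97 ± 0.06 in null BM-MSC, Stat6 by 0.72 ± 0.07 in null ASC, and Jak2 by 1.43 ± 0.05 in the tumor line.

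Of 14 other inhibitors, 6 rose and 3 fell in null BM-MSC, 3 rose and 2 fell in null ASC, and 5 rose and 7 fell in the tumor line against null BM-MSC. The shares over all genes were 19.3% and 20.2%, 20.3% and 21.2%, and 34.6% and 35.0%, and the ASC counts are about that rate. Cish, a relative of Socs3 that STAT5 induces, fell by 1.20 ± 0.13 (SE, log2) in null BM-MSC (adjusted p = 0.000560 in limma) and by 1.21 ± 0.13 in null ASC (0.000449). Socs1, which blocks Janus kinases, rose where Socs3 fell, by 0.63 ± 0.05 in BM-MSC (0.000222) and by 0.56 ± 0.05 in ASC (0.000300). Socs2 rose by 0.63 ± 0.09 in null BM-MSC (0.00261) and fell by 3.40 ± 0.09 in the tumor line (4.62e-07), where Socs3 rose. Ptpn1, a phosphatase that acts on Janus kinases, fell by 1.05 ± 0.05 there (2.66e-06).

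The last list held receptors and NF-κB genes that govern Il6 transcription, among them the restraining genes Il1rn and Nfkbia. Of 14 tested, 1 rose and 8 fell in null BM-MSC, 5 rose and 2 fell in null ASC, and 5 rose and 6 fell in the tumor line against null BM-MSC. Beside shares over all genes of 19.3% and 20.2%, 20.3% and 21.2%, and 34.6% and 35.0%, the tumor line counts are near the background. Il1r1, the receptor for interleukin 1, had levels of 1.01 in both wild-type BM-MSC cultures and -0.43 and -0.51 in null BM-MSC, against 1.60 and 1.46 in wild-type ASC and 2.01 and 2.00 in null ASC. It fell by 1.48 ± 0.08 (SE, log2) in BM-MSC (adjusted p = 3.65e-05 in limma) and rose by 0.47 ± 0.08 in ASC (0.00300), a difference of -1.95 ± 0.11 (9.04e-05). Tlr2, a receptor for bacterial lipoproteins, also fell in BM-MSC, by 0.86 ± 0.05, and rose in ASC, by 0.65 ± 0.05, a difference of -1.51 ± 0.07 (5.99e-05). Il6 itself fell in both tissues, and its difference between them was not called. Il1rn, the interleukin 1 receptor antagonist, fell by 3.24 ± 0.68 in null BM-MSC (0.0105), a call that ended without wild-type BM-MSC replicate 1 (adjusted p = 0.0513) or null BM-MSC replicate 2 (0.0539). Il17ra rose by 1.03 ± 0.10 in null ASC (0.000387). In the tumor line, where Il6 was not well above background, Nfkb1 rose by 1.17 ± 0.09 against null BM-MSC (4.61e-05; 0.76 with the mean of its probes) and Il1rn was at least 32.9-fold lower (a fitted change of -5.92, or -2.61 under normexp correction). The genes Il1a, Il1b, Tnf and Tlr3 did not pass the filter on dim probes.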

How the data were processed

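Total RNA of 10 mouse MSC cultures was labelled with Cy3 and hybridised to Agilent arrays, 1 per culture. Spot intensity values in the scanner files were deposited as the authors obtained them from Feature Extraction (version 10.7.3.1, per the file headers). The deposited series matrix appears to be log2 and normalized (array medians 5.04 to 5.06) and served as an alternative only. The submitters' processing notes name limma without a version. Its normalization was not given in the sources used here.

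Outlier and control spots were left out, log2 signals were averaged over a probe's spots, and the 75th percentile of each array was subtracted. Dropped were 37 of 55681 probes that lacked a usable spot. Each gene was represented by its probe of highest mean, and 22596 genes were tested, those with both arrays of some group well above background. All 5 groups were fitted together with limma 3.58.1 in R 4.3.3 (5 residual and 1.35 prior degrees of freedom). P-values are two-sided, Benjamini-Hochberg adjusted over all genes, with a threshold of 0.05. For a group with no array well above background, folds used a floor, the lowest signal well above background on each array. Levels under the floor were raised to it, and such folds are lower bounds. Levels above the floor were used as measured, as for Lif in wild-type BM-MSC. The median SE of a change was 0.0946, and the number of arrays limits precision. P-values cover the spread between duplicates only, and the labels do not say whether these came from separate mice.

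The 8 genes and the pathway lists were chosen with earlier results of these data known. Named are all 8 genes, the 2 genes most like each, Il6ra, Il11ra1, Osm, Stat3 and Jak1, and from each list up to 3 of the largest called changes per comparison, except 1 gene that is not reported here. Marker lists were myeloid, endothelial, lymphoid, MSC, osteoblast and adipocyte genes, with values given beside the results they move with. Summed endothelial signals were 9202 to 12642 in ASC, 6191 to 6588 in BM-MSC and 1895 to 1897 in the tumor line (mostly Eng and Kdr), with Cdh5, Tek and Tie1 well above background on no array. Lymphoid sums were 1151 to 1631, and osteoblast sums, largely Col1a1 and Spp1, 74666 to 145087. Alternatives were 21 settings of background correction, scaling, filter, probe choice, samples and variance model.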

Additional observations from a re-analysis of the deposited data

Results flagged for a closer look

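The change from wild-type to null cells differed between BM-MSC and ASC for 6 of the 8 genes, tested as an interaction in limma, and 31.8% of all genes passed the same test. The effect in BM-MSC minus that in ASC was 1.30 (log2) for Lif, -0.44 for Clcf1, -0.63 for Il6st, -1.45 for Lifr, -1.02 for Osmr and -0.48 for Socs3. The differences of Il6st, Lifr and Osmr passed under each of the 21 settings, with adjusted p up to 0.0438, 0.00299 and 0.00608. Rb1 and Trp53 themselves fell less in BM-MSC, with differences of 1.93 (adjusted p = 2.92e-05) and 4.10 (0.000173), and the part of this in the results was not tested. Slide position followed genotype in both tissues in the same way, and its part in these differences was not tested.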

How the results depend on the processing

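Of 1146 recomputed changes of the 8 genes, 1089 kept direction and side of the threshold, 38 lost the call, 15 gained it and 4 changed sign. The sign changes were those of Il6 in the difference of effects under normexp correction (0.18) and, in null against wild-type ASC, of Il11 and Il6st with an array left out (-0.027 to 0.170 and -0.017 to 0.126), and none of these was called. Il6ra in ASC changed sign with the array median (-0.037) and with an array left out (-0.075 to 0.090). With the array median subtracted, 3 of the 8 genes and 19 other pathway genes were called in the difference of effects (6 and 32 otherwise). The share of all genes called was then 26.0% for null against wild-type BM-MSC and 19.4% for the difference. With no filter on dim probes it was 20.7%, 22.5% and 15.4% for null against wild-type BM-MSC, ASC and their difference, 32.7% and 32.0% for BM-MSC against ASC in null and wild-type cells, and 44.1% and 42.5% for the tumor line against null and wild-type BM-MSC. The cause was not tested. Calls also ended for Socs3 in null against wild-type ASC with the array median (adjusted p = 0.0625), no filter (0.0511) or those 4 arrays alone (0.0622), and in BM-MSC against ASC of wild-type mice with the array median (0.133) or no filter (0.0567). In the difference of effects, no filter ended the calls of Lif (0.0782) and Socs3 (0.0783), quantile normalization that of Lif (0.102), and the array median those of Lif (0.0658), Socs3 (0.181) and Clcf1 (0.0801). Lif in the tumor line against wild-type BM-MSC was not called with normexp (0.0591) or those arrays alone (0.0694). Calls appeared for Osmr in wild-type BM-MSC against ASC with quantile normalization, the series matrix or a trended variance (0.0275 to 0.0426), and for Lif in null BM-MSC with normexp (0.0447) and in null ASC with normexp, the matrix or those arrays alone (0.00499 to 0.0262), and for both without the tumor line (0.0287 and 0.0260). The mean of the Lifr probes gave a called rise in null BM-MSC of 0.45 (adjusted p = 0.00150). Same-numbered cultures showed little shared deviation across genes (correlations of -0.122 to 0.116), which cannot settle whether the numbers pair samples. With the replicate block, 4 of the 8 genes passed in the difference of effects, where Lif (adjusted p = 0.0692) and Socs3 (0.0604) were lost, and no other call of the 8 genes changed. Slide could not be fitted as a block because each group lies in 1 slide and row. Dim signal limits Il6 and Lif most, and their printed folds for the tumor line are bounds.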
